A study of Homo sapiens with 9 samples.

Results

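KLF2 and KLF4 are Krueppel-like factors, transcription factors with C-terminal zinc fingers that bind CACCC and GC-rich DNA. They were read by 2 of the 53617 probe sets on the array (2 of the 14884 named genes), 1 for each gene: probe set 16859314 for KLF2 (gene 10365) and probe set 17096827 for KLF4 (gene 9314). Both genes were above the median of the array on all 8 arrays used, so both passed the filter on dim probe sets. They were chosen by gene symbol and with their log2 intensities across the culture conditions already known. Their levels are therefore a description and carry no test.

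In the endothelium KLF2 and KLF4 are known as genes that blood flow switches on. The flow signal passes through the kinases MEKK3 (MAP3K3), MEK5 (MAP2K5) and ERK5 (MAPK7) to the MEF2 transcription factors, which act on the KLF2 promoter. In epithelia KLF4 is known as a factor of differentiating, non-dividing cells that raises keratin genes, and in stem cells it is a pluripotency factor. KLF2 keeps T lymphocytes quiescent and restrains inflammatory genes.

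The cells were A549, an established human line from a lung adenocarcinoma that grows attached to plastic, in DMEM with 10% serum. They were cultured for 5 days on ordinary attachment plates in normal medium, on low-attachment plates in normal medium, or on low-attachment plates in medium with 0.015% (w/v) of an additive named FP001. Medium without FP001 had purified water in its place, and the labels do not say what FP001 is made of. RNA of 3 samples per condition was hybridised, and it is not stated whether they were separate cultures, so the spread behind each p-value may be technical. Values below rest on 8 arrays, 2 of attachment plates (replicates 2 and 3) and 3 of each low-attachment condition. Attachment replicate 1 is left out by the rule that defines these values. Its rank correlation with the other arrays lay between −0.0151 and −0.00191, against 0.961 to 0.985 among the remaining 8. All results are from 1 cell line, and the number of arrays limits their precision.

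Among the tested epithelial markers KRT18, a keratin of simple epithelia, was the brightest, read by the brighter of 2 probe sets that passed the filter. Its mean intensities were 3589.7, 3724.0 and 4422.1 in attachment, low-attachment and FP001 cultures. KRT18 rose with FP001 against attachment (limma adjusted p = 0.00917). Against normal medium it was called only with the replicate number as a block (limma adjusted p = 0.0465, against 0.157 without). KRT8, another keratin of the list, was far dimmer (147.0, 145.0 and 140.0 in the same order) and was not called. That the cells are epithelial rests on the named line, not on KRT18 alone. The summed intensity of 8 named markers of lung epithelium and A549 cells was 4098 to 4310, 4228 to 4365 and 4777 to 5173 in those groups. Most of each sum was KRT18 itself. The lung markers NAPSA, SFTPB, SFTPC and NKX2-1 were dim, with attachment means of 25.4, 28.9, 33.4 and 21.6. The array medians were 23.3 to 24.1. Because KLF2 is known best from endothelium and lymphocytes, markers of other cell types were read beside it. The summed intensity of 7 named endothelial markers was 154 to 177, 162 to 184 and 182 to 206, and 2 of the 7 (ESAM and CLDN5) were bright enough to test. PECAM1, VWF, TIE1, EMCN and ERG lay below the filter, and 0 of the markers of any cell type were listed at 0. The sums for 3 leukocyte markers were 220 to 251, 235 to 259 and 210 to 258. The sums for 3 fibroblast markers were 110 to 170, 80.4 to 313 and 134 to 493, with LUM, an extracellular matrix gene, reaching 436.5 on FP001 replicate 1. Of the tested markers, KRT7 fell on low-attachment plates, EPCAM fell with FP001 and THY1 fell in both (limma adjusted p = 0.0422, 0.042, 0.029 and 0.0115). By their titles all samples were A549 cultures, and no other cell type is named. The part of other cell types in the KLF values was not tested. In RNA from whole cultures, fewer cells of a type and less RNA per cell cannot be told apart.

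The 250 bases before each gene's annotated start are shown because both genes read higher on low-attachment plates, and because the flow pathway named above ends at this stretch of KLF2. They come from RefSeq (GRCh38.p14), 5′ to 3′ on the strand of the gene, at chr19:16324576-16324825 (plus strand) for KLF2 and chr9:107489770-107490019 (minus strand) for KLF4. Capitals mark matches, on either strand, to the MEF2 site, the CArG box of SRF, the GC box GGGCGG, the CACCC box, the AP-1 site TGANTCA and the element TATAAG.
KLF2: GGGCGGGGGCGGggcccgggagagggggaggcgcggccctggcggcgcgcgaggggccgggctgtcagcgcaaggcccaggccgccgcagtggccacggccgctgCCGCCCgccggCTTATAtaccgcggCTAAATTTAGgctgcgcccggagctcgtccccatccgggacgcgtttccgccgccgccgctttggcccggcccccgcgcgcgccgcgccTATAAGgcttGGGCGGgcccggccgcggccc
KLF4: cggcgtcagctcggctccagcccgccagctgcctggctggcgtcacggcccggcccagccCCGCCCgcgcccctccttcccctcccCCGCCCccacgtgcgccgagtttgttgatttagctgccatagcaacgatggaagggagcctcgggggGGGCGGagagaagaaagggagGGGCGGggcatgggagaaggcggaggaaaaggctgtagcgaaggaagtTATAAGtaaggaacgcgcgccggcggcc

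Both windows are rich in G and C (80.0% for KLF2 and 69.2% for KLF4), and each held 4 GC boxes, the kind of site that SP and KLF proteins bind. The GC box occurred in 42.3% of 27305 promoter windows of the same length. The KLF2 window held 1 MEF2 match, CTAAATTTAG, from −120 to −111 relative to the start, and a MEF2 match occurred in 2.9% of windows. The KLF4 window had no MEF2 match. Both windows held TATAAG close to the start (from −31 in KLF2 and from −28 in KLF4), and KLF2 held another on the opposite strand. TATAAG occurred anywhere in the window, on either strand, in 5.09% of windows. Neither window matched the CArG box, the AP-1 site or the CACCC box, which occurred in 1.14%, 6.6% and 53.7% of windows. None of the marked matches overlapped another. A match describes letters only, and no match says only that these letters are not in this window.

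KLF2 was higher in both low-attachment conditions. Its intensity was 119.3 and 134.6 on the attachment arrays (replicates 2 and 3), 290.9, 241.8 and 306.6 on the low-attachment arrays (replicates 1, 2 and 3), and 366.7, 312.0 and 337.2 on the arrays with FP001. The attachment arrays were the lowest, no low-attachment array came near them, and the FP001 arrays were the highest, with the lowest of them just above the highest array in normal medium. The group means, as mean log2 turned back to intensity, were 127.0, 278.0 and 338.0, and the standard deviations of log2 intensity were 0.12 (n = 2), 0.18 (n = 3) and 0.12 (n = 3).

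Against attachment plates, KLF2 was 2.20-fold higher on low-attachment plates (log2 difference 1.13 ± 0.12, standard error from the fit) and 2.67-fold higher with FP001 (1.41 ± 0.12). Over the 6 pairs of arrays in each comparison the ratio ran from 1.80 to 2.57 and from 2.32 to 3.07. Of the 10916 genes in the fit, 0.513% had a log2 difference at least as large in the first comparison and 0.293% in the second. These shares place KLF2 among the genes and, since KLF2 was chosen for these values, nothing is read from them. Both differences use the same 2 attachment arrays.

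FP001 against normal medium on low-attachment plates gave KLF2 a ratio of 1.21 (log2 difference 0.28 ± 0.11). The ratio of same-numbered arrays was 1.26, 1.29 and 1.10 for replicates 1, 2 and 3. The groups did not overlap, but the gap between them was narrow (306.6 against 312.0), and the lowest pair of arrays had a ratio of 1.02. Of the genes in the fit, 3.69% had a log2 difference at least that large. In the order of KLF2 levels, attachment and low attachment were separated by far more than their spread, whereas low attachment and FP001 were neighbours whose means lay about as far apart as the arrays of a group.

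KLF4 had a much smaller difference. Its intensity was 84.2 and 78.0 on the attachment arrays (replicates 2 and 3), 93.0, 92.2 and 92.9 on the low-attachment arrays (replicates 1, 2 and 3), and 96.8, 102.6 and 86.5 on the arrays with FP001. The low-attachment arrays in normal medium were nearly identical, and the FP001 arrays spread on both sides of them. The group means were 81.0, 92.7 and 95.1, and the standard deviations of log2 intensity were 0.08 (n = 2), 0.01 (n = 3) and 0.13 (n = 3).

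KLF4 was 1.14-fold higher on low-attachment plates (log2 difference 0.19 ± 0.10) and 1.17-fold higher with FP001 (0.23 ± 0.10) than on attachment plates. With FP001 its lowest array (replicate 3) was 1.03 times the highest attachment array. Log2 differences at least this large were found in 20.6% and 21.8% of genes. FP001 and normal medium overlapped on low-attachment plates (log2 difference 0.04 ± 0.09), with same-numbered ratios of 1.04, 1.11 and 0.931, and 41.7% of genes had a log2 difference at least that large. In the order of KLF4 levels, low attachment and FP001 did not differ beyond their spread.

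Neither KLF2 nor KLF4 overlapped between attachment plates and either low-attachment condition, with higher values off the attachment plate in each case. The same held for 22.2% of genes for low attachment and 26.5% for FP001, and 23.4% and 26.2% had groups apart with lower values. For FP001 against normal medium, KLF2 alone of the pair had groups that did not overlap, as did 8.48% of genes in the upward direction and 9.01% in the downward direction. Across the 6 low-attachment arrays, where the attachment plates play no part, the log2 levels of the pair had a Pearson correlation of 0.10 and a Spearman correlation of 0.26. These arrays share the cell line and the length of culture, so this is a description.

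**Figure D1:**
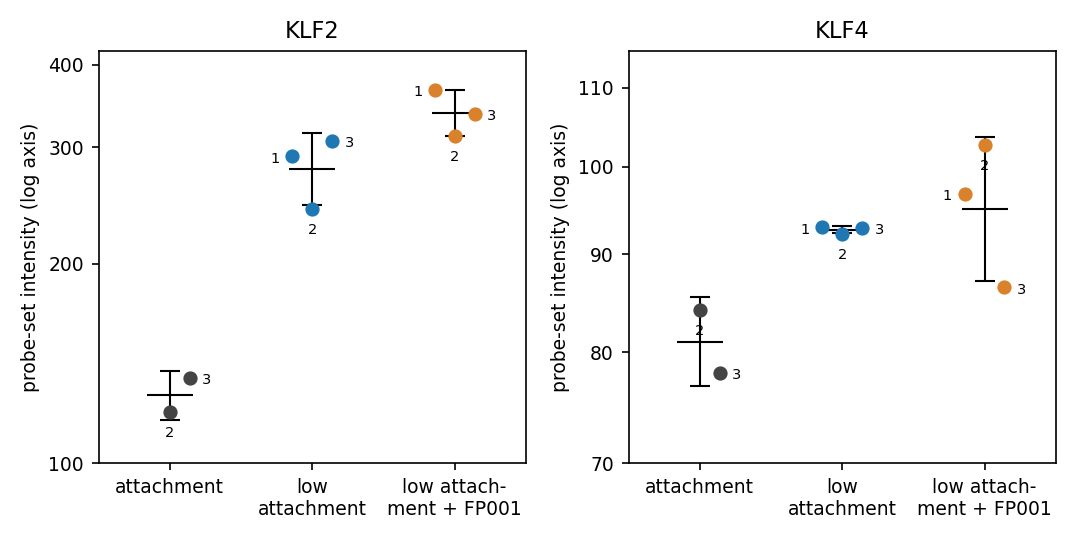
Probe-set intensity of KLF2 (left) and KLF4 (right) on a log axis for the 8 arrays, 1 point per array with its replicate number; bars give the mean log2 level and 1 standard deviation of log2 intensity. KLF2 lies at 119.3 to 134.6 on attachment plates and at 241.8 to 366.7 on low-attachment plates, while KLF4 spans only 78.0 to 102.6 over all arrays.

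The other KLF genes and the SP genes are the closest relatives of KLF2 and KLF4. Of the 15 other KLF genes and 9 SP genes, all of which had a probe set, 13 and 8 were bright enough to test; KLF8, KLF17 and SP8 lay below the filter. Between low-attachment and attachment plates, 1 of the 21 relatives rose and 0 fell, where 10.1% of all genes were called (4.31% rose and 5.76% fell), and the median log2 difference was 0.09 against 0.01 for all genes. Between FP001 and attachment plates, 2 rose and 2 fell, where 19.5% of all genes were called (8.08% rose and 11.4% fell), and the medians were 0.10 and 0.02. Between FP001 and normal medium on low-attachment plates, 0 of 21 were called, where 0.11% of all genes were (0.0366% rose and 0.0733% fell). Calls are at a limma adjusted p under 0.05, Benjamini-Hochberg over all 10916 genes.

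KLF10, a factor induced by TGF-beta, was at 396.6 and 460.6 on the attachment arrays, 274.6, 338.6 and 377.9 on the low-attachment arrays and 229.2, 288.8 and 300.0 with FP001. It therefore ran in the opposite direction to KLF2, with FP001 arrays all below the attachment arrays. Its log2 difference was −0.66 ± 0.15 with FP001 (limma adjusted p = 0.0147), and −0.38 ± 0.15 in normal medium, which missed the threshold (adjusted p = 0.139).

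SP4, a neuronally enriched SP factor, was at 126.9 and 117.1 on attachment, 95.2, 90.0 and 105.0 on low-attachment and 70.9, 71.5 and 82.2 on FP001 arrays. These 3 groups did not overlap and stood in the reverse order of KLF2, and the share of all genes with this pattern was not counted. SP4 fell with FP001 (log2 difference −0.71 ± 0.11, limma adjusted p = 0.00206), and this call held without each of the 8 arrays in turn. In normal medium its difference was −0.34 ± 0.11 (adjusted p = 0.0768).

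The relatives that rose did so by little. KLF11, like KLF10 a TGF-beta-inducible repressor, rose by 0.33 ± 0.10 with FP001 (limma adjusted p = 0.0466), from a mean of 75.0 to 94.2. KLF15, a metabolic factor, rose by 0.49 ± 0.15 (adjusted p = 0.042), from 23.8, which is close to the array median, to 33.4. SP9 rose by 0.33 ± 0.09 in normal medium (adjusted p = 0.0473), from 130.0 to 163.0. Each of these 3 calls sits at the threshold. KLF11 and KLF15 were each lost when any 1 of 6 of the 8 arrays was left out (attachment replicates 2 and 3, all 3 FP001 arrays, and low-attachment replicate 3 for KLF11 or 2 for KLF15; adjusted p up to 0.204 and 0.259). SP9 was lost without any array but FP001 replicate 1 (adjusted p up to 0.192). KLF10 was lost without attachment replicate 2 or 3 (0.0529 and 0.103). In a fit over all groups, leaving out an array also changes the shared estimate of spread.

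The other bright relatives gave small differences. KLF5, a factor of proliferating epithelium, had means of 586.0, 625.0 and 553.0 in attachment, low-attachment and FP001 cultures, and KLF6 had 219.0, 208.0 and 240.0. KLF3, a repressor, had 209.0, 264.0 and 225.0, and KLF7 had 201.0, 179.0 and 151.0. The broadly expressed factors SP1 and SP3 had 392.0, 389.0 and 368.0, and 252.0, 262.0 and 236.0. None of these 6 was called in any comparison (limma adjusted p from 0.129 to 0.956). Among the relatives not called in normal medium, KLF13 had the lowest adjusted p (log2 difference 0.39 ± 0.11, adjusted p = 0.0516). The difference between the shift of KLF2 and that of its relatives was not tested.

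**Figure D2:**
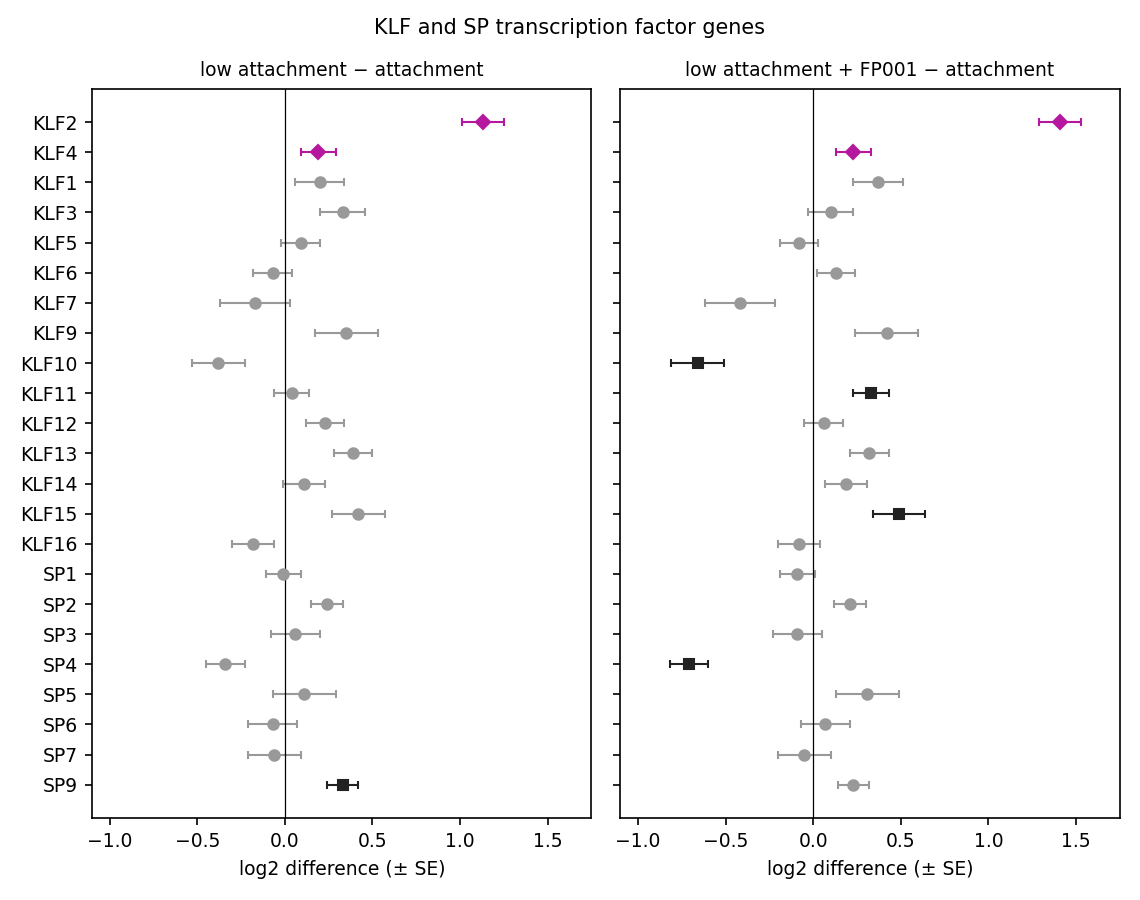
Log2 differences with standard errors for KLF2 and KLF4 (diamonds, no test) and the 21 tested relatives, for low attachment against attachment (left) and FP001 against attachment (right); black squares mark relatives at an adjusted p under 0.05, grey circles those above it. KLF2 stands at 1.13 and 1.41, whereas the relatives range from −0.71 for SP4 to 0.49 for KLF15.

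Genes of the routes that are known to raise or restrain KLF2 and KLF4 showed changes in both directions. Of 24 such genes 21 were tested, and 1 rose and 2 fell on low-attachment plates, against 1 and 4 with FP001. Of all genes 10.1% and 19.5% were called in these comparisons, so the counts lie near the background. The median log2 differences of the 21, activating and restraining genes together, were −0.07 and −0.05. With FP001 against normal medium 0 of 21 were called by limma, where 0.11% of all genes were, so nothing is read from this count.

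MAP3K3, the kinase MEKK3 at the head of the flow route, was the riser in both. Its intensity was 108.3 and 120.4 on attachment, 154.8, 142.4 and 151.2 on low-attachment and 175.4, 159.7 and 167.2 on FP001 arrays, so that, as for KLF2, the 3 groups did not overlap. How many of all genes have 3 groups apart in this order was not counted, so no link to KLF2 is read from it. It rose by 0.39 ± 0.09 in normal medium (limma adjusted p = 0.0267) and by 0.55 ± 0.09 with FP001 (adjusted p = 0.00346). The first call was lost without attachment replicate 2 or 3 or low-attachment replicate 1 or 3 (adjusted p = 0.191, 0.0609, 0.0677 and 0.0729), and the second held without each array.

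The kinases below MAP3K3 were not called upward. MAP2K5 had means of 112.0, 90.7 and 81.3 and fell with FP001 (log2 difference −0.46 ± 0.13, limma adjusted p = 0.0368), a call lost without any 1 of 5 arrays (attachment replicate 2, low-attachment replicates 2 and 3, FP001 replicates 1 and 2; adjusted p up to 0.308). MAPK7, the kinase ERK5, had means of 136.0, 114.0 and 111.0 and was not called (adjusted p = 0.201 and 0.104). The MEF2 genes that end the route had log2 differences between −0.18 and 0.11 for MEF2A and MEF2D, with no call, and MEF2C lay below the filter with means of 7.66, 8.13 and 9.92. The array reads transcripts, while this route acts by phosphorylation.

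On the cytokine route to KLF4, the kinase JAK1 fell from a mean of 727.0 to 528.0 and 496.0 (log2 differences −0.46 ± 0.12 and −0.55 ± 0.12, limma adjusted p = 0.0376 and 0.0119). STAT3, the transcription factor it activates, fell with FP001 from 1292.5 to 884.0 (−0.55 ± 0.12, adjusted p = 0.0122) and stood at 1012.2 in normal medium, where it missed the threshold (adjusted p = 0.0935). SMAD2, a carrier of TGF-beta signals, fell from 835.0 to 556.0 and 668.0 (−0.59 ± 0.09 and −0.32 ± 0.09, adjusted p = 0.00443 and 0.0387). The first SMAD2 call held without each array. The second, and JAK1 in normal medium, were each lost without any 1 of 6 arrays, attachment replicates 2 and 3 and 4 low-attachment arrays (adjusted p up to 0.146 and 0.217). JAK1 with FP001 was lost without attachment replicate 3 (0.0908), and STAT3 without attachment replicate 2 (0.128).

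Of 6 tested genes that act on KLF2 or KLF4 protein, 2 fell in each comparison with attachment plates and 0 rose, where 5.76% (low attachment) and 11.4% (FP001) of all genes fell, and the median log2 differences were −0.01 and −0.05. FBXO22, a ubiquitin ligase subunit that marks KLF4 for degradation, fell from 296.0 to 197.0 and 207.0 (log2 differences −0.58 ± 0.12 and −0.51 ± 0.12, limma adjusted p = 0.0123 and 0.0146). PRMT5, a methyltransferase that stabilises KLF4, fell from 139.0 to 109.0 and 108.0 (−0.35 ± 0.10 and −0.37 ± 0.10, adjusted p = 0.0452 and 0.0264). FBXO22 was lost without attachment replicate 2 or 3 in both comparisons (adjusted p from 0.0693 to 0.0882). PRMT5 was lost without any 1 of 6 arrays in normal medium and of 4 with FP001, attachment replicates 2 and 3 among them (up to 0.194 and 0.134). WWP1 and SMURF1, ligases that act on KLF2, had log2 differences of 0.27 ± 0.08 and 0.03 ± 0.08 on low-attachment plates, with no call.

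Genes known to be raised by KLF2 or KLF4 went both ways. Of 24 such genes 9 could be tested; 3 rose and 3 fell on low-attachment plates, where 10.1% of all genes were called, and 3 rose and 2 fell with FP001, where 19.5% were (median log2 differences −0.03 and −0.16). The risers included 2 epithelial keratins that KLF4 is known to activate. KRT4 was at 57.6 and 71.1 on attachment, 197.7, 174.5 and 157.1 on low-attachment and 371.4, 235.2 and 241.7 on FP001 arrays. Its groups stood in the same order as those of KLF2, with no overlap, a pattern whose share among all genes was not counted. KRT4 rose 2.75-fold in normal medium (log2 difference 1.46 ± 0.19, limma adjusted p = 0.00159) and 4.32-fold with FP001 (2.11 ± 0.19, adjusted p = 0.000153), and both calls held without each array.

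KRT19 was at 212.3 and 160.1 on attachment, 514.3, 334.7 and 310.0 on low-attachment and 666.2, 506.4 and 465.5 on FP001 arrays. Low-attachment replicate 1 overlapped the FP001 arrays, and both low-attachment groups lay above attachment. KRT19 rose by 1.03 ± 0.22 (limma adjusted p = 0.0158, but 0.13 without attachment replicate 3) and by 1.55 ± 0.22 (adjusted p = 0.00135). With FP001 against normal medium, KRT4 and KRT19 were not called (log2 differences 0.65 and 0.52, adjusted p = 0.205 and 0.357). They were called with the replicate number as a block (0.0152 and 0.014). The markers of differentiated squamous epithelium KRT13, IVL and SPRR1A lay below the filter in all groups, and SPRR2A was not called.

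The endothelial genes of the same list split. NOS3, the endothelial nitric oxide synthase, rose by 0.39 ± 0.11 and 0.42 ± 0.11 from a low mean of 27.4 (limma adjusted p = 0.0488 and 0.0225). THBD, the anticoagulant receptor thrombomodulin, fell from 146.0 to 104.0 and 112.0 (−0.49 ± 0.11 and −0.38 ± 0.11, adjusted p = 0.0181 and 0.0305). ADM, a vasodilator peptide, fell from 166.0 to 93.9 and 88.1 (−0.82 ± 0.13 and −0.91 ± 0.13, adjusted p = 0.00439 and 0.00153), and both calls held without each array. HMOX1, heme oxygenase 1, fell in normal medium from 727.0 to 380.0 (−0.94 ± 0.25, adjusted p = 0.0412). NOS3 in normal medium was lost without any 1 of the 8 arrays (adjusted p from 0.0548 to 0.167). With FP001 it was lost without 1 of 4 arrays (attachment replicates 2 and 3, FP001 replicates 1 and 2; up to 0.099). HMOX1 was lost without 1 of 5 (attachment replicates 2 and 3, low-attachment replicates 1 and 2, FP001 replicate 2; up to 0.189). THBD was lost without attachment replicate 2 in both comparisons (0.146 and 0.208), and with FP001 also without attachment replicate 3 or FP001 replicate 2 (0.0546 and 0.0888).

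Genes known to be lowered by KLF2 or KLF4 were also called in both directions. Of 18 such genes 12 were tested, and 3 rose and 1 fell in each comparison with attachment plates (median log2 differences 0.02 and 0.11). Of all genes, 4.31% rose and 5.76% fell on low-attachment plates, and 8.08% and 11.4% with FP001. CCNE2, a cyclin that starts DNA replication, rose from 42.6 to 81.0 and 101.0 (0.93 ± 0.14 and 1.25 ± 0.14, limma adjusted p = 0.00374 and 0.000502), without loss of the call when each array was left out. ODC1, the rate-limiting enzyme of polyamine synthesis and a gene that KLF4 represses, rose from 748.0 to 1069.7 and 1411.6 (0.52 ± 0.12 and 0.92 ± 0.12, adjusted p = 0.0207 and 0.000854). The chemokine gene CCL2, which KLF2 restrains in endothelium, rose from 75.8 to 145.0 and 112.0 (0.93 ± 0.17 and 0.57 ± 0.17, adjusted p = 0.00815 and 0.0424).

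BAX, a cell death gene that KLF4 lowers, was the 1 that fell, from 374.0 to 236.0 and 245.0 (−0.66 ± 0.12 and −0.61 ± 0.12, limma adjusted p = 0.00644 and 0.00585). BAX and, in normal medium, CCL2 were lost without attachment replicate 2 (adjusted p = 0.0731 and 0.0696 for BAX, 0.0841 for CCL2). CCL2 with FP001 was lost without either attachment array or any FP001 array (up to 0.235). ODC1 in normal medium was lost without attachment replicate 2 or low-attachment replicate 2 or 3 (0.181, 0.0589 and 0.063). With FP001 against normal medium 0 of the 21 genes of both target lists were called, where 0.11% of all genes were. With the replicate block 3 were called: KRT4, KRT19 and ODC1 (limma adjusted p = 0.0288 for ODC1). The share of all genes called with the block is not given, so nothing is read from this count. The cyclins CCND1, CCNE1 and CCNB1 and the adhesion gene ICAM1, all known to be lowered by KLF2 or KLF4, were not called in either comparison with attachment plates. EDN1, of the same list, had means of 1352.6, 1006.7 and 1027.7 in attachment, low-attachment and FP001 cultures. It also missed the threshold in both (limma adjusted p = 0.0622 and 0.0549).

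**Figure D3:**
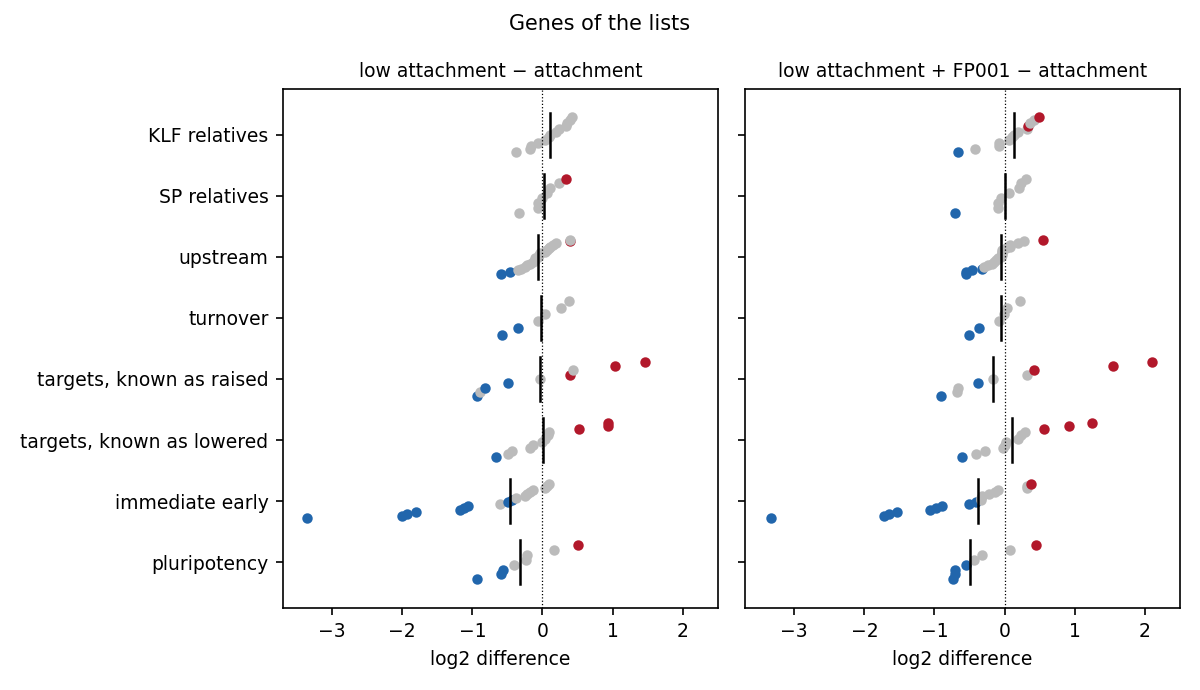
Log2 differences of the tested genes in each list, for low attachment against attachment (left) and FP001 against attachment (right); each point is a gene, red for a call upward, blue for a call downward and grey for no call, and the black bar is the list's median. Both target lists have calls on either side of 0, whereas the immediate early list has 9 calls downward and a median of −0.46 on the left.

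KLF2 and KLF4 are also counted among the immediate early genes, which cells switch on within minutes of serum or stress. Of 18 tested immediate early genes, 0 rose and 9 fell on low-attachment plates, and 1 rose and 9 fell with FP001 (median log2 differences −0.46 and −0.38). Of all genes, 5.76% and 11.4% fell and 4.31% and 8.08% rose in these comparisons. EGR1, DUSP1, JUN and FOS had the largest falls in normal medium, with log2 differences of −3.36, −2.0, −1.93 and −1.80. With FP001 the largest falls were those of EGR1, FOS, DUSP1 and JUNB, with −3.33, −1.72, −1.65 and −1.54. JUND, the riser with FP001 (log2 difference 0.38, limma adjusted p = 0.0422), was lost without either attachment array, any FP001 array or low-attachment replicate 3 (adjusted p up to 0.182). With FP001 against normal medium, JUN was the 1 gene called (limma adjusted p = 0.0212), where 0.11% of all genes were. It was lost without any FP001 array or low-attachment replicate 2 or 3 (up to 0.155). With the replicate block DUSP1 and JUND were called as well (0.0337 and 0.0399). The share of all genes called with the block is not given, so nothing is read from these added calls.

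The partners of KLF4 in pluripotency were mostly lower or dim. Of 13 genes 8 were tested; 1 rose and 3 fell on low-attachment plates, where 10.1% of all genes were called, and 1 rose and 4 fell with FP001, where 19.5% were (median log2 differences −0.32 and −0.50). LIF, the cytokine that acts through JAK1 and STAT3 to maintain KLF4 in mouse stem cells, fell from 173.0 to 91.2 and 104.0 (−0.93 ± 0.15 and −0.74 ± 0.15, limma adjusted p = 0.00421 and 0.0077). TBX3 fell from 294.0 to 195.0 and 179.0 (−0.59 ± 0.11 and −0.71 ± 0.11, adjusted p = 0.00977 and 0.00251) and SALL4 from 68.5 to 46.6 and 42.2 (−0.56 ± 0.12 and −0.70 ± 0.12, adjusted p = 0.0191 and 0.00422). TFCP2L1 fell with FP001 (−0.55, adjusted p = 0.0144), and PRDM14 rose from 26.2 to 37.5 and 35.8 (adjusted p = 0.039 and 0.0442).

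SOX2 was not called. Its arrays spread widely, from 109.0 to 298.1 in normal medium on low-attachment plates. POU5F1, NANOG and LIN28A lay below the filter, with means of at most 18.2. Without attachment replicate 2, TBX3 in normal medium and SALL4 in both comparisons were lost (adjusted p = 0.0981, 0.17 and 0.0552), and without attachment replicate 3, LIF and TFCP2L1 with FP001 (0.0612 and 0.112). PRDM14 was lost without any 1 of 6 arrays in each comparison, attachment replicates 2 and 3 among them (up to 0.203 and 0.213).

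The genes whose pattern over the 8 arrays was most like that of KLF2 were found by Pearson correlation of log2 intensity, among 1490 genes whose group means spanned at least 0.5. They were TALDO1 (0.993), an enzyme of the pentose phosphate pathway, VAMP8 (0.991), a vesicle fusion protein, TRNP1 (0.989), ORMDL2 (0.989), a regulator of sphingolipid synthesis, CHMP6 (0.986), a protein of endosomal sorting, and MAP3K3 (0.985). MAP3K3 is thus both in the list of upstream genes and ranked sixth in likeness. Within the 6 low-attachment arrays alone the correlations with KLF2 were between 0.827 for CHMP6 and 0.956 for TALDO1. Of the 21 tested genes of both target lists, 9 had group means far enough apart to be ranked. KRT4 ranked 25 (0.963), CCNE2 48 (0.949), KRT19 162 (0.899), ODC1 185 (0.887) and CCL2 364 (0.768), while DUSP5 (−0.607), HMOX1 (−0.683), BAX (−0.902) and ADM (−0.905) ran opposite to KLF2.

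VAMP8 read 99.6 and 108.4 on attachment, 190.5, 179.2 and 203.1 on low-attachment and 225.6, 204.1 and 197.0 on FP001 arrays, and like KLF2 it was lowest in normal medium on replicate 2 and highest with FP001 on replicate 1. For KLF4 the correlations were lower: CYMP (0.929), PXDC1 (0.922), WFDC10A (0.921), EPB41L4A-DT (0.921), GLDN (0.921) and FAIM2 (0.912). Most of these genes were dim. WFDC10A and GLDN, with means of 16.6 and 16.3 on attachment plates, lay below the array medians (23.3 to 24.1) there. They passed the filter only through low-attachment arrays, so their rise is partly built in. The largest log2 difference of KLF4 itself was 0.23, under the span of 0.5 required. Genes that shift as little as KLF4 were therefore not ranked. Within the 6 low-attachment arrays the correlations of the named genes lay between 0.681 and 0.884. The arrays share the cell line and the length of culture, and the step from attachment to low-attachment plates dominates each correlation over 8 arrays, so these are descriptions without a test.

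**Figure D4:**
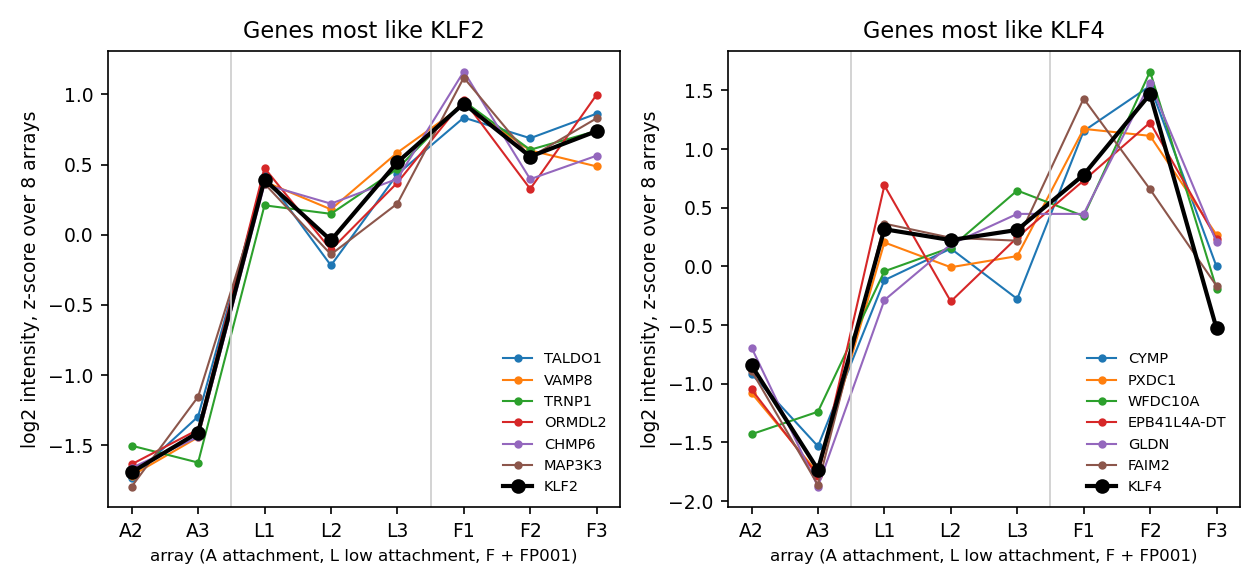
Log2 intensity as a z-score over the 8 arrays for KLF2 (left, black) and KLF4 (right, black) with the 6 genes of highest correlation in colour; A, L and F are attachment, low-attachment and FP001 arrays with their replicate numbers, and the lines only join the values of a gene. All genes on the left are lowest on both attachment arrays, and on the right KLF4 and its 6 genes read lower on FP001 replicate 3 than on FP001 replicate 2.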

How the data were processed

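RNA of A549 cells was labelled from 100 ng of total RNA and hybridised to 9 Affymetrix arrays, 3 per group. The authors deposited 1 intensity per probe set and array on a linear scale, which the submitters' processing notes credit to MAS5, with neither version nor settings. The labels name a 3' labelling kit, and how it bears on these probe sets was not tested. Gene names come from the platform annotation, for 16098 of 53617 probe sets.

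Values were taken to log2 with no pseudocount. Probe sets at or above the array median on at least 3 of 8 arrays were kept (27942), and the brightest named probe set stood for each of 10916 genes. The 3 groups were fitted together with limma 3.58.1 (R 4.3.3; lmFit, eBayes with trend), with 5 residual and 5.6 prior degrees of freedom and Benjamini-Hochberg adjustment over all genes; the fit was tested on simulated data. Attachment replicate 1 was left out of all values except where stated. Intensities give no read depth, and the number of arrays limits precision.

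The genes described and the gene lists were chosen with earlier results of these data known. Named were all called genes of a list where 6 or fewer were called in a comparison, otherwise the 4 largest rises and falls, the 8 brightest relatives, and the 6 genes most like KLF2 and KLF4. Other genes (among them KLF13, MAPK7, WWP1, SOX2, VAMP8 by array and the dim or uncalled members of lists) were named after their values were seen. Same-numbered low-attachment and FP001 arrays deviated together (correlations of deviations 0.483, 0.309 and 0.231). Their numbers were used as pairs only in the ratios of same-numbered arrays and in the fit with the replicate number as a block. The main fit, which gave all counts not marked as blocked, used the groups alone and ignored this pairing. Attachment numbers did not pair (correlations −0.205 and 0.138 with low attachment, −0.256 and 0.00762 with FP001).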

Additional observations from a re-analysis of the deposited data

Results flagged for a closer look

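KLF2 read 510.3 on attachment replicate 1, the array left out of all comparisons, above the 119.3 and 134.6 of the other attachment arrays and above all 6 low-attachment arrays. It was singled out as a signal in data the comparisons do not use. That array had a median intensity of 15.8, against 23.3 to 24.1 on the rest, and its ranks were uncorrelated with theirs. The part of this in the KLF2 value was not tested.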

How the results depend on the processing

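With all 9 arrays, the log2 difference from attachment was 0.47 (low attachment) and 0.74 (FP001) for KLF2 and 0.28 (low attachment) for KLF4, and 0 genes of any list were called in any comparison. Directions then reversed for these genes, given as log2 differences with FP001 and then low attachment: ADM 0.58 and 0.67, BAX 0.69 and 0.64, FBXO22 0.77 and 0.70, JAK1 0.91 and 1.00, PRMT5 0.32 and 0.33, SALL4 0.18 and 0.33, SMAD2 0.69 and 0.43, TBX3 0.19 and 0.31, THBD 0.61 and 0.51. With FP001 alone they reversed for CCL2 (−0.08), KLF10 (1.29), STAT3 (2.07) and TFCP2L1 (0.06). Pearson r turned negative with KLF2 for VAMP8 (−0.35), TRNP1 (−0.31), ORMDL2 (−0.41), CHMP6 (−0.26) and MAP3K3 (−0.42), and with KLF4 for PXDC1 (−0.24) and FAIM2 (−0.62). By construction only the added array differs.

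Of the 21 relatives, 1 was called for low attachment against attachment, but 0 with median centring, without a filter or without a trend, and 2 with quantile normalization or with the replicate block. With FP001, 4 were called, but 2 without a filter, 7 with quantile normalization and 2 with the replicate block. Of the 27 upstream and turnover genes, 5 were called for low attachment, and 3 without a trend. With the replicate block 14 of 21 target genes were called for FP001 against attachment in place of 9, and for FP001 against normal medium 3 target genes in place of 0 and 3 immediate early genes in place of 1, which was 0 without a trend. No share of all genes called with the block is given, so the blocked counts cannot be set against a background. Against attachment plates, whose numbers did not pair with the others, the block lost PRMT5 and NOS3 in normal medium (limma adjusted p = 0.0543 and 0.0905) and KLF11 and KLF15 with FP001 (0.0753 and 0.0775). Among genes named above it gained KLF13 (limma adjusted p = 0.0433), STAT3 (0.00881), CCNB1 (0.0122) and EDN1 (0.0285) in normal medium. With FP001 it gained HMOX1 (0.00237), CCND1 (0.0101), CCNE1 (0.0339), SOX2 (0.0286), EDN1 (0.0304) and the endothelial marker CLDN5 (0.046). The cause of these moves was not tested.

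Leaving out 1 array at a time gave KLF2 differences of 1.05 to 1.24 (low attachment), 1.33 to 1.5 (FP001) and 0.18 to 0.35 (FP001 against normal medium), and KLF4 differences of 0.14 to 0.25, 0.17 to 0.30 and −0.02 to 0.10. In low attachment and then FP001 against attachment, counts were 0 to 1 and 1 to 4 for relatives, 1 to 6 and 2 to 8 for upstream and turnover genes, 4 to 10 and 5 to 11 for targets, 7 to 9 and 7 to 11 for immediate early genes, and 2 to 4 and 2 to 5 for pluripotency genes; for FP001 against normal medium they were 0 to 1 for immediate early genes and 0 for the others. Of 55 calls named, 21 held without each array and 34 did not. Other settings lost 5 (median centring), 7 (no filter), 9 (no trend), 1 (pseudocount 16), 8 (quantile normalization) and 4 (replicate block) of them.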

Other observations

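The gene whose pattern over the 8 arrays was most opposite to that of KLF2, chosen after its values were seen, was EGFR, the epidermal growth factor receptor (Pearson r = −0.992 among the same 1490 genes). EGFR read 497.3 and 498.8 on attachment, 248.6, 290.0 and 227.8 on low-attachment and 201.2, 252.4 and 230.0 on FP001 arrays. Its log2 difference from attachment was −0.97 ± 0.12 on low-attachment plates and −1.13 ± 0.12 with FP001, and FP001 and normal medium overlapped. Next came GPRIN3 (r = −0.992), with log2 differences of −0.75 and −0.90 from attachment in normal medium and with FP001, and TNS3 (r = −0.987), a tensin of focal adhesions, with −0.90 and −1.1. These genes were picked for this pattern on the same arrays, so their values are a description with no test.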
